A study of Drosophila melanogaster with 4 samples.

Results

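Of 1155 Prd peaks in 0 to 12 h Drosophila melanogaster embryos, 211 (18.3%) lay in unplaced or heterochromatic sequence. These peaks were taken by the name of the sequence they lie on, with no use of their scores or widths. Uextra held 197 of them, the heterochromatic sequences 3LHet, 2RHet, 3RHet and 2LHet held 7, 3, 2 and 1, and U held 1. The other 944 peaks lay on the placed arms, which are X, 4 and both arms of chromosomes 2 and 3. Peaks on Uextra mostly lay singly at a distance of 10 kb (155 of 197) and ended at a score of 42.1. In the whole list 642 of 1155 peaks lay singly by this measure, and on the placed arms 477 of 944. The 13 peaks on the Het sequences had a median score of 12.96. It was 12.96 on all placed arms and 12.4 on the arms outside a dense group of peaks on 2L, described below. Of the 13 Het peaks, 9 (69.2%) were under 300 bp wide. That share was 29.4% on Uextra and 42.7% on the arms outside the 2L group.

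The peaks come from a chromatin immunoprecipitation sequencing (ChIP-seq) experiment with 2 libraries of ChIP DNA and 2 libraries of input DNA, the unenriched chromatin. All 4 share the strain Y cn bw sp. They carry the alleles y[1], cn[1], bw[1] and sp[1], further oc[R3.2], CG33964[R4.2] and lab[R4.2], and also Gr22b[1], Gr22d[1], LysC[1], MstProx[1], GstD5[1] and Rh6[1]. No treatment was applied, and embryos were fixed in 1.8% formaldehyde for 15 min. Chromatin was made from whole embryos collected in bulk from cages, so neither cell types nor stages within the collection can be told apart. The antibody, anti-Prd RF13, is a rabbit polyclonal raised against residues 355 to 552 and 572 to 613 of Prd, leaving out the paired repeat between them. The antigen's stated length is 258 residues, more than these parts hold together. The files give 1 list for the series and no value per library. The replicate error of a peak and the read depth are therefore unknown, and no p-value is given for any comparison. All comparisons are descriptions of this list, and the sources used here do not say how both replicates were combined in it.

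Paired (Prd) is a transcription factor of the pair-rule class, which divides the early embryo into segments. It binds DNA through a paired domain and a homeodomain and acts upstream of segment polarity genes such as engrailed and wingless. Heterochromatin is the compact, repeat-rich part of the genome around the centromeres. Much of it is hard to assemble: a short read from a repeat can match many places. In FlyBase release 5, the build of the list, the Het sequences hold heterochromatic scaffolds assigned to an arm, and U holds scaffolds assigned to none. Uextra gathers further small scaffolds joined end to end, so a distance along it is a distance in that collection and need not be one on a chromosome. No DNA sequence of this build was used here, and no gene is assigned to a peak.

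On Uextra the peaks were concentrated in the middle of the span they covered. They ran from 1070261 to 26283769, a span of 25.2 Mb with 7.81 peaks per Mb, against 8.19 peaks per Mb over the summed spans of the placed arms. That arm value includes a dense group of 84 peaks on 2L, described below. By arm it was 11.5 on 2L, 8.91 on 2R, 8.05 on 3R, 7.72 on 4, 7.56 on 3L and 4.75 on X, so Uextra lay within the range of the arms. Windows of 1 Mb were counted from the start of Uextra to its last peak, leaving out any sequence beyond. Of these 27 windows, 26 held a peak, the median window held 5, and 10 windows held 10 or more. Those 10 windows followed each other without a break from 8 to 18 Mb. The windows with the most peaks were 10 to 11 Mb with 20, 12 to 13 Mb with 19 and 14 to 15 Mb with 16. The stretch from 8 to 18 Mb, whose limits were chosen after the counts were seen, held 141 peaks (71.6% of those on Uextra), which is 14.1 per Mb. Before it lay 19 peaks, 2.38 per Mb, and after it, up to 27 Mb, 37 peaks, 4.11 per Mb.

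**Figure D1:**
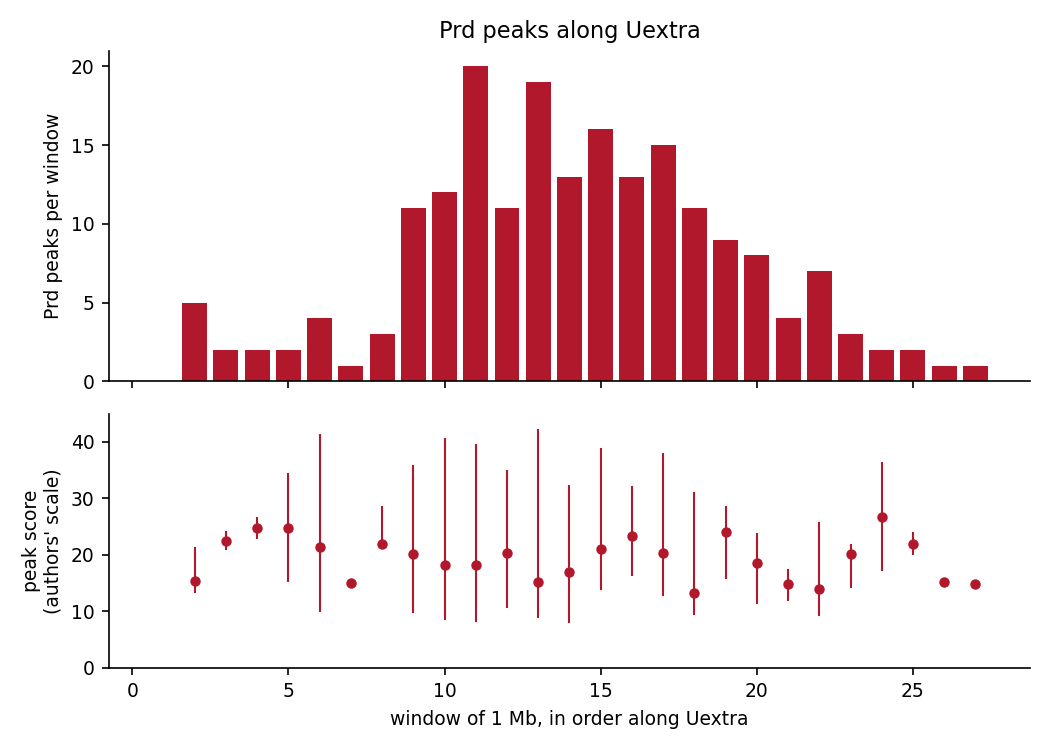
Number of Prd peaks in each 1-Mb window of Uextra up to the last peak, in order (upper panel), and the score of the peaks in it (lower panel, dot for the median, line from lowest to highest, authors' score). Windows 9 to 18, which cover 8 to 18 Mb, hold at least 11 peaks each, and no window has a peak above 42.1.

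Scores did not follow these counts. The score is the peak caller's own value, on a scale that is not given, and is used here within the list alone. The median score was 21.3 over the 19 peaks before 8 Mb, 18.3 over the 141 peaks of the crowded stretch and 19.98 over the 37 after it, so the section with the most peaks had the lowest of these close medians. Median widths were 392, 441 and 365 bp in the same order. Peaks of 500 bp or more made up 8 of 19 before 8 Mb (42.1%), 54 of 141 from 8 to 18 Mb (38.3%) and 4 of 37 beyond (10.8%). The first Uextra peak, 1070261 to 1071305, was also the widest at 1045 bp, with a score of 21.3. The next widest were 885 bp at 4386906 (score 34.2) and 796 bp at 3437861 (score 26.5), so the 3 widest all lay in the sparse part before 8 Mb. The last peak, 26283413 to 26283769, was 357 bp wide with a score of 14.9.

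The highest-scoring Uextra peaks lay in all 3 sections. The peak at 12994407 to 12995021 scored 42.1 and was 615 bp wide, and the peak at 5902600 to 5903237 scored 41.2 over 638 bp. Next came 9540373 to 9541107 (score 40.5, 735 bp), 10054597 to 10054957 (score 39.5, 361 bp) and 14206622 to 14207109 (score 38.8, 488 bp). Widths among these 5 ran from 361 to 735 bp, where the median of all Uextra peaks was 412 bp. Ranks 6 to 10 were 16381883 to 16382497 (score 37.9), 14774240 to 14774681 (36.5), 23511411 to 23511943 (36.2), 8752973 to 8753518 (35.8) and 11315452 to 11316039 (34.8). Of the 10, 1 lay before 8 Mb, 8 from 8 to 18 Mb and 1 beyond. In the whole list these 10 took ranks 91 to 131, and 85 placed-arm peaks scored above every member of the group. At the other end, the 5 lowest scored 8.17 (13290827 to 13291066), 8.24 (10159911 to 10160116), 8.61 (9848024 to 9848231), 9.03 (12653691 to 12653908) and 9.10 (12385435 to 12385679). All 5 were narrow, between 206 and 245 bp, and all lay from 8 to 18 Mb.

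Most Uextra scores lay above the list's median (152 of 197, 77.2%, against 44.0% of all placed-arm peaks), but few reached 30. The Uextra median was 19.5 (interquartile range 14.3 to 23.8, full range 8.17 to 42.1). On the 860 placed-arm peaks outside a dense group on 2L, described next, the median was 12.4 (interquartile range 9.72 to 20.6, full range 6.19 to 228). Of 197 Uextra peaks, 11 (5.58%) fell below the first quartile of the list's scores, against 253 of the 860 (29.4%). Scores of at least 30 were found for 19 Uextra peaks (9.64%) against 136 of the 860 (15.8%), and scores of at least 40 for 3 (1.52%) against 98 (11.4%). At lower thresholds Uextra had the larger share. Above the list's upper quartile lay 69 of 197 Uextra peaks (35%) against 197 of the 860 (22.9%). A score of at least 20 was reached by 94 (47.7%) against 222 (25.8%). The arms were not alike in this. On X alone, the 99 peaks had a median score of 18.7, with 47 (47.5%) at 20 or above, and a median width of 452 bp, so these values of Uextra lay close to those of X, while 28.3% of X peaks scored at least 40. The higher Uextra median does not hold at the upper end. Among peaks above the list's median score, the Uextra median minus that of all placed arms was -1.53, where over all peaks it was 6.52.

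The dense group on 2L is a run of 84 peaks at 21416997 to 21543149, found by chaining peaks at gaps of up to 50 kb. Its median score was 16.4 (interquartile range 12.6 to 21.5), against 19.5 on Uextra. A score of at least 20 was reached by 36.9% of its peaks, against 47.7% on Uextra. Its highest score was 45.8, so neither Uextra nor this group had a peak at 50 or above. Their widths differed: the median was 412 bp on Uextra and 491.5 bp in the 2L group, and the widest peaks were 1045 bp and 2064 bp. Peaks of 600 bp or more were 24 of 197 on Uextra (12.2%) and 36 of 84 in the 2L group (42.9%).

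In each width class under 600 bp, the Uextra median score lay above that of the arm peaks. For widths of 201 to 299 bp the median score was 13.5 over 58 Uextra peaks and 9.84 over 367 arm peaks outside the 2L group. For 300 to 399 bp it was 20.2 over 36 and 12.96 over 175, and for 400 to 499 bp 19.8 over 37 and 14.7 over 82. In each of these classes the Uextra median exceeded the arm median by more than 3 score units. For 500 to 599 bp the medians were 22.8 over 42 Uextra peaks and 19.4 over 66 arm peaks. From 600 bp upwards the order turned, with 24.6 over 24 Uextra peaks and 36.9 over 170 arm peaks. That last class has no upper limit, and its widths reached 1045 bp on Uextra and 2149 bp on these arms. Its medians therefore do not compare peaks of like width. The 2L group shared the low value of wide peaks (21.6 over 36 peaks of 600 bp or more), while its peaks of 201 to 299 bp had a median of 11.3 over 21. Across peaks, width and score were correlated with Spearman's rho = 0.60 on Uextra (197 peaks), 0.75 on the arms outside the 2L group (860 peaks) and 0.81 in that group (84 peaks). Width and score come from the same calls on the same libraries, and peaks are not replicates.

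**Figure D2:**
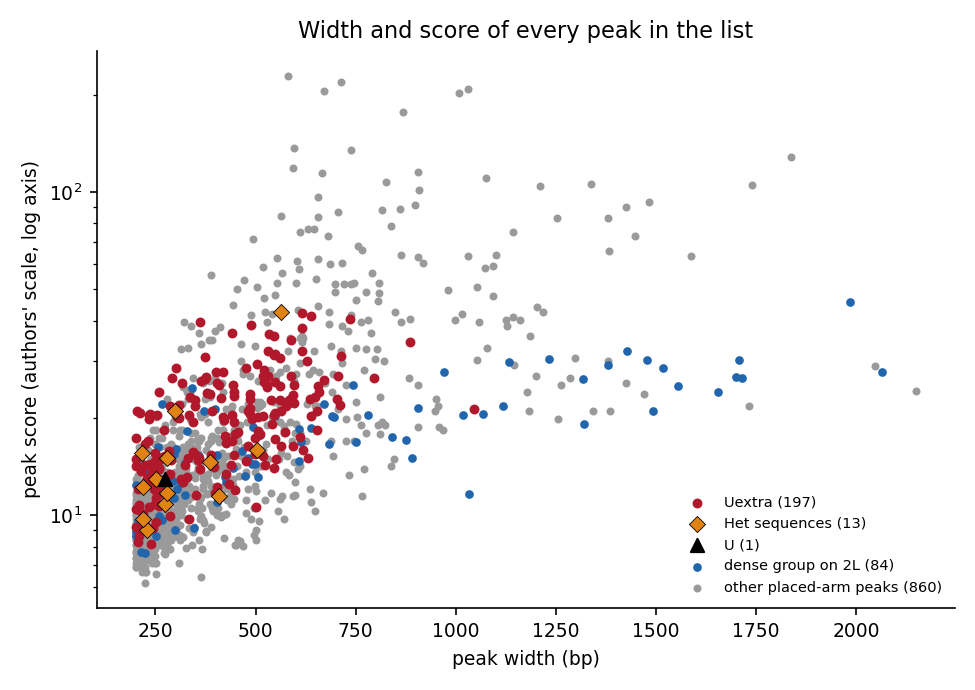
Score (authors' scale, log axis) against width of each of the 1155 peaks, one point a peak. Uextra peaks stay at or below 42.1 at all widths. At 201 to 299 bp the highest score is 26.5 on Uextra and 22.9 on the other placed-arm peaks, and at 500 to 599 bp it is 36.2 and 228.

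Uextra widths ranged from 201 to 1045 bp, with an interquartile range of 271 to 533 bp. The width of 201 bp is also the smallest on the placed arms. In steps of 50 bp from 201 to 550 bp the counts were 35, 23, 20, 16, 24, 13 and 27, so no single width prevailed. All Uextra peaks together covered 82434 bp, 0.327% of their span, against 0.373% of the summed spans on the placed arms. The dense 2L group made up 57165 of the 429739 bp covered on the arms. By arm the share was 0.564% on 2L, 0.366% on 2R and on 3R, 0.303% on 3L, 0.263% on X and 0.231% on 4.

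Neighbouring Uextra peaks were mostly far apart. The 196 gaps between the edges of neighbours had a median of 66370.5 bases (lower quartile 22959 bases, smallest 46). On the arms outside the 2L group the median of 854 gaps was 54320 bases, with a lower quartile of 8558 bases, where the gap left by removing that group was kept. At the long end the order turned, with upper quartiles of 147948.5 bases on Uextra and 187017 bases on these arms, and longest gaps of 1092250 and 2535187 bases. The quartiles of the Uextra gaps thus lay closer together. The median gap did not set Uextra apart from each arm. It was longer on X (81016.5 bases), 4 (74474.5) and 3L (68823.5), and shorter on 2R (54880.5), 3R (36810) and 2L with its dense group (8869). Gaps under 1 kb were 5 of 196 on Uextra (2.55%) and 115 of 854 on the arms outside the 2L group (13.5%). A neighbouring midpoint within 10 kb was found for 42 of 197 Uextra peaks (21.3%). On the arms outside the 2L group this was 383 of 860 (44.5%), and in the 2L group all 84. In the crowded stretch from 8 to 18 Mb, with more peaks per Mb than the arms together, 36 of 141 Uextra peaks (25.5%) had such a neighbour. Before 8 Mb it was 2 of 19 and beyond 18 Mb 4 of 37.

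**Figure D3:**
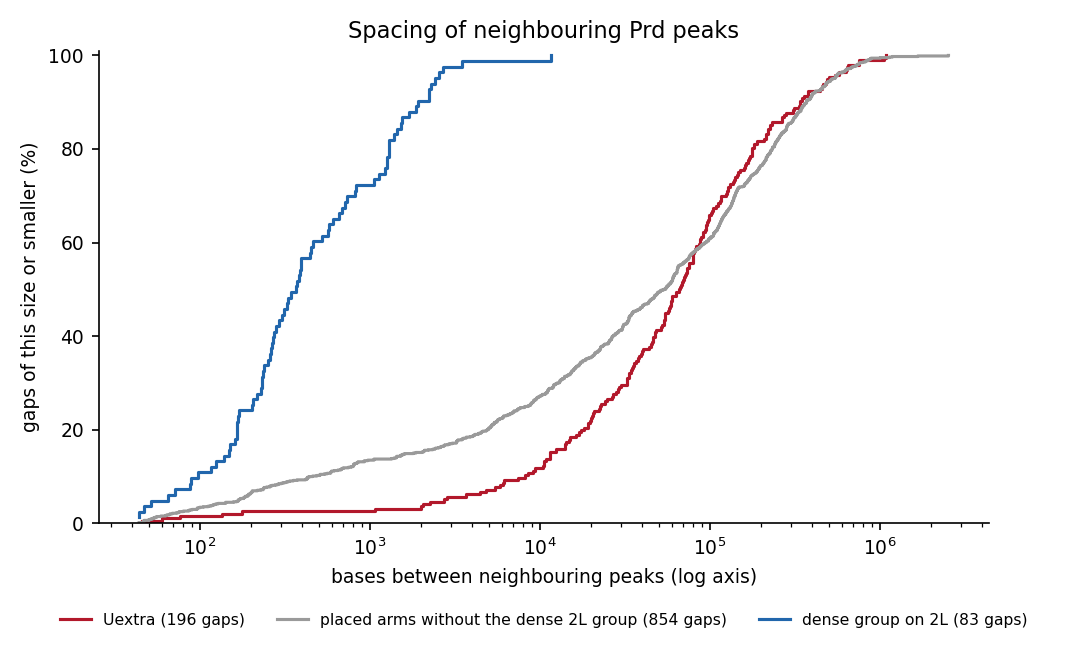
Cumulative share of gaps between neighbouring peak edges (log axis) for Uextra, for the placed arms without the dense 2L group and for that group. The Uextra curve stays at 2.55% up to 1 kb, where the arm curve has reached 13.5%, and the curves cross at longer gaps, with upper quartiles of 147948.5 bases on Uextra and 187017 bases on the arms.

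Chaining Uextra peaks at gaps of up to 10 kb gave 155 single peaks, 15 pairs and 4 groups of 3. No group reached 4 peaks. The 944 placed-arm peaks, with the dense 2L group counted, gave 466 single peaks, 115 pairs, 34 groups of 3 and 15 of 4 or more. The arms hold many more peaks, so these counts are not on the same footing. The 4 groups of 3 lay at 10798829 to 10805977 (scores 17.4 to 25), 12801121 to 12814202 (10.6 to 26.9), 14205285 to 14213840 (14 to 38.8) and 16973795 to 16989493 (14.7 to 23.5). All were in the crowded stretch, and the shortest spanned 7149 bp. Chaining at 50 kb instead joined 5 groups of 4 or more.

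A few Uextra peaks lay almost side by side. The 3 closest pairs were 46 bases apart at 21446517 to 21447102, 60 bases apart at 12385435 to 12386118 and 77 bases apart at 17939454 to 17939990. In the first pair the peak with the lower coordinate scored 9.30 and the other 25.7, and in the second 9.10 and 23.8. In the third they scored 10.7 and 9.50. Another 2 pairs under 200 bases apart, named after their values were seen, lay at 10054228 to 10054957 (scores 19.9 and 39.5) and 13939002 to 13939633 (scores 15.0 and 20.4). The peak with the higher coordinate was the wider one in 5 of 5 pairs and the higher-scoring one in 4 of 5. With so few pairs, and no such count made on the arms, this cannot be called a trait of Uextra. After these 5 pairs, the next closest Uextra neighbours were 1077 bases apart. The longest stretches between Uextra neighbours were 25191163 to 26283412 (1092250 bases), 5903238 to 6958939 (1055702 bases) and 2104539 to 2863451 (758913 bases), all outside the crowded stretch.

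The 13 Het peaks stood below most Uextra peaks in score, near the level of the placed arms. The median score was 19.5 on Uextra and 12.96 on the Het sequences. It was 12.96 on all placed arms and 12.4 on those outside the 2L group. Of 197 Uextra peaks, 161 (81.7%) scored above the Het median. The median width was 412 bp on Uextra and 279 bp on the Het sequences. Peaks under 300 bp were 9 of 13 on the Het sequences, 58 of 197 on Uextra (29.4%) and 367 of 860 on the arms outside the 2L group (42.7%). On the Het sequences 2 of 13 peaks scored above the Uextra median, 6 of 13 above the median of the list and 2 of 13 below its first quartile. Leaving out each Het sequence in turn gave score differences of 4.92 to 6.89 and width differences of 125.5 to 135.5 bp, all higher on Uextra. Joining peaks within 1 kb, which leaves 192 Uextra and 11 Het peaks, brought the width difference down to 45 bp.

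On 3LHet the peak at 1396450 to 1397012 scored 42.5 over 563 bp, the highest score of all 211 and rank 86 in the list. The other 6 peaks of 3LHet scored between 9.02 and 15.1. They lay at 542318 to 542596 (score 11.7), 593335 to 593720 (14.6), 857185 to 857463 (15.1), 857996 to 858215 (12.2), 2190998 to 2191227 (9.02) and 2409271 to 2409490 (9.72). The peaks at 857185 and 857996 were 532 bases apart. On 2RHet the peak at 198199 to 198497 scored 20.9, and a pair 412 bases apart at 2900329 to 2900545 and 2900958 to 2901231 scored 15.6 and 10.9. So 4 of the 13 Het peaks (30.8%) had a neighbouring midpoint within 10 kb, against 21.3% on Uextra and 44.5% on the arms outside the 2L group. No Het gap was under 200 bases. On 3RHet the peaks at 776736 to 777143 and 1824007 to 1824257 scored 11.4 and 12.96. The peak of 2LHet, 34235 to 34738, scored 15.9 over 504 bp, and the peak of U, 2253156 to 2253430, scored 12.96 over 275 bp.

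**Figure D4:**
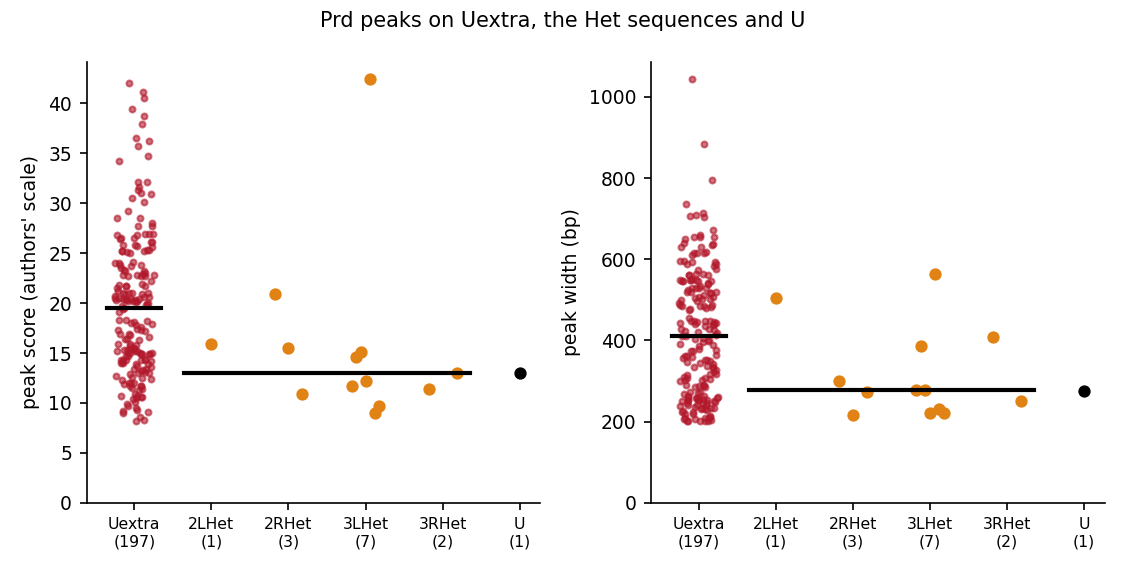
Score (left, authors' scale) and width (right, bp) of each peak on Uextra, the 4 Het sequences and U, one point a peak, with bars at the median of Uextra and of the 13 Het peaks. The Het medians of 12.96 and 279 bp lie below those of Uextra, and 1 peak on 3LHet tops the scores at 42.5.

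Uextra also differed in which score values occurred. Scores are listed to 2 decimals, and on the arms outside the 2L group many peaks carried the very same value. Over the whole list, a value found on at least 1 other peak was carried by 90 of 197 Uextra peaks (45.7%), 21 of 84 peaks of the 2L group (25%) and 674 of the 860 arm peaks (78.4%). Matches within a set count here, and the arm peaks are the largest set. Matched instead against arm peaks outside the 2L group, the counts were 60 of 197 Uextra peaks (30.5%) and 11 of 84 peaks of the 2L group (13.1%). Of the 860 arm peaks, 654 (76.0%) shared their value with another of the same set. The 14 peaks of the Het sequences and U were like the arms, with 12 of 14 (85.7%) on a shared value, such as the 42.5 of 3LHet and the 12.96 of U.

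The contrast held at each level of score. Between 10 and 15, 20 of 52 Uextra peaks (38.5%) shared their value with such an arm peak, against 236 of 292 arm peaks (80.8%). Between 20 and 30 it was 20 of 75 (26.7%) against 73 of 86 (84.9%). Within Uextra, the 137 peaks with a value not found on those arm peaks had a median score of 20.3 and a median width of 441 bp. The 60 with a shared value had medians of 16.7 and 335.5 bp. Shared values made up 5 of 19 peaks before 8 Mb, 42 of 141 from 8 to 18 Mb and 13 of 37 beyond, so they were not gathered in one section. These counts were chosen after the list was seen, and the sources used here do not say how the score was computed.

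**Figure D5:**
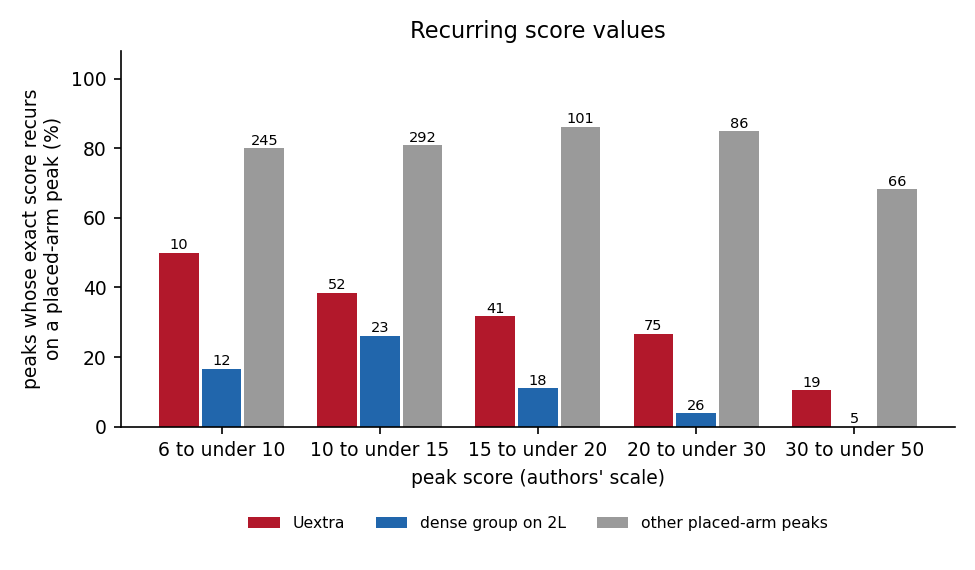
Share of peaks whose exact score (2 decimals) is also found on a placed-arm peak outside the dense 2L group, by score class, with the number of peaks above each bar. Uextra lies between 10.5% and 50.0%, the 2L group between 0% and 26.1%, and the other arm peaks, each matched against the rest, between 68.2% and 86.1%.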

How the data were processed

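The authors deposited 1 peak list in GFF3 format on FlyBase release 5, per the file headers, with a start, an end and 1 score per peak. MACS, a peak caller that sets ChIP reads against a modelled background, stands in its source field. MACS2, BWA, CASAVA (1.7.0.2 and 1.7.0.3) and the build BDGP5 are named without a role, per the submitters' processing notes. Not given in the sources used here are the threshold, the use of input, the read depth and the score's scale. Peaks are numbered without a gap, and no neighbours overlap.

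Width was end minus start plus 1, and gaps were the bases between neighbouring edges. Windows were placed by peak midpoint. Named are all Het and U peaks, the 10 highest, 5 lowest and 3 widest Uextra peaks, its first and last, its 3 closest pairs and longest gaps, its groups, and its 3 fullest windows. Members and lists were chosen with earlier results of these data known. The alternatives were joining peaks within 1 kb (keeping the highest score), keeping those scoring above the list's median, other distances, gaps and windows, Het sequences left out in turn and arms without the dense 2L group. Counting steps were tested on 50 simulated lists of known spacing and recovered it in all 50. Tables were made with pandas 2.3.3 and SciPy 1.17.1 under Python 3.11.15, with NumPy 2.4.6, and figures with Matplotlib 3.10.9.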

Additional observations from a re-analysis of the deposited data

How the results depend on the processing

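Of 36 alternatives, 28 kept the direction of a difference and moved a value by no more than 1.5 times (for the share of near neighbours, stayed within its 95% Clopper-Pearson interval, 15.8% to 27.7%, which treats peaks as independent). Keeping peaks above the list's median score turned the Uextra minus arm differences to -1.53 in median score and -104 bp in median width. By construction this removes more of the arm peaks, of which 44.0% lie above that median, than of the Uextra peaks, of which 77.2% do. Merging peaks within 1 kb brought the Uextra minus Het difference in median width to 45 bp, as both Het pairs became single wide peaks. A neighbour within 5 kb was found for 12.7% of Uextra peaks and within 50 kb for 66.0%, and chaining at 50 kb gave 5 groups of 4 or more. The fullest window held 11 peaks at 0.5 Mb and 32 at 2 Mb. These values change with the distance or window by construction. No paired analysis was possible because values per library are lacking in the list, and no library could be left out either. Without the read depth, how many peaks the list misses cannot be bounded.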
